A study of Mus musculus with 4 samples.

Results

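Transcripts of 9 adhesion genes were followed in the embryonic mouse ureter: the cadherins Cdh1, Cdh2, Cdh3, Cdh11 and Cdh16, and the nectins Nectin1, Nectin2, Nectin3 and Nectin4, which the array design lists under their older symbols Pvrl1 to Pvrl4. Every probe that carries 1 of these gene names was taken, whatever its value. This gave 15 probes for 9 of the 29985 genes on the array, and all 15 probes were well above background in all 8 RNAs, so that no member was lost to the filter on dim probes. RNA came from ureters dissected from NMRI embryos at E15.5. The ΔNp63-cKO embryos were Pax2-cre/+; Trp63(dN-flox/dN-flox). Control embryos were Trp63(dN-flox/?), with at least 1 floxed allele and no cre in the listed genotype, so effects of cre and of losing ΔNp63, the p63 form of basal epithelial cells, cannot be told apart. On each of 4 arrays, RNA of cKO and of sex-matched control embryos was hybridised together, from females in replicates 1 and 2 and from males in replicates 3 and 4. Dyes were swapped: red marked cKO in replicates 1 and 3, and green marked it in replicates 2 and 4. The labels do not say whether each RNA came from 1 embryo or from several. The p-values cover no spread beyond that between these 4 arrays. In those from limma, each gene's spread is moderated with that of all genes tested.

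Adherens junctions hold neighbouring cells together through 2 systems of transmembrane proteins. Classical cadherins bind their like on the next cell through calcium-dependent extracellular repeats and reach the actin cytoskeleton through β-catenin and α-catenin. Nectins are immunoglobulin-like proteins that bind nectins in cis and in trans without calcium and reach actin through afadin. E-cadherin is found in nearly all epithelia, whereas P-cadherin is typical of the basal cells of stratified epithelia such as epidermis and urothelium. In published work on skin and limb, P-cadherin and nectin 1 were described as genes downstream of p63. The comparison here asks whether these members differ between cKO and control ureters, and whether their paralogs differ in the same way.

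The probes behind the members that differed, and the E-cadherin probe beside them, are shown because a probe that also bound a paralog would mix the signals of both. Cross-hybridisation itself was not tested. Probes were compared only with each other and not with the transcripts of paralogs, so the shared runs cannot decide it. A 30-base stretch of each 60-base probe is shown 5′ to 3′ as deposited in the scanner files, with the longest run that the probe shares with the partner named after it in capitals.
Cdh3 (probe A_66_P113868, bases 16 to 45, partner Cdh1): gtgctgtagatgGAGAGTgatgacaatcgt
Cdh1 (probe A_51_P137336, bases 22 to 51, partner Cdh3): gacaagacctttGAGAGTtttcattcaaaa
Nectin1 (probe A_52_P28651, bases 31 to 60, partner Nectin4): atgtcactgttttcctctttggtcCTGGGG
Nectin4 (probe A_55_P2167040, bases 9 to 38, partner Nectin1): gaccccaaggatCTGGGGtcttagtatgta
In both pairs the longest shared run was 6 bases. Over all 98 pairs of probes from different members the longest shared run was 4 to 8 of 60 bases. In the mm9 build, per the file headers, the Cdh3 probe lies on chromosome 8 at 109079933 to 109079992 and the Cdh1 probe on chromosome 8 at 109193812 to 109193871, both on the plus strand and 114 kb apart. The 2 genes are neighbours: a RefSeq gene table of assembly GRCm38.p6, used for gene order only, places 0 protein-coding genes between them and 3 non-coding or pseudogene models. The Nectin1 probe lies on chromosome 9 at 43615340 to 43615399 and the Nectin4 probe on chromosome 1 at 173318310 to 173318369, both on the plus strand. Exon and UTR positions were not analysed here.

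Of the 9 members, 3 were lower in cKO ureters (limma, Benjamini-Hochberg over 21499 genes, adjusted p under 0.05) and 0 were higher, where 0.702% of all genes tested were lower and 0.502% higher. The members were chosen with earlier results of these data known. Shares of all genes in this paragraph thus give scale and do not measure an excess over a blind choice. The members that fell were Cdh3, Nectin1 and Nectin4. Before adjustment, 6 members had p under 0.05, of which 4 were lower (4.31% of all genes) and 2 higher (3.73% of all genes). The normalised log2 intensities of the 4 cKO RNAs lay wholly below those of the 4 control RNAs for 4 members, against 3.33% of all genes, and wholly above for 2 members, against 3.05% of all genes. The log2 ratio was below 0 on all 4 arrays for 4 members (7.65% of all genes) and above 0 on all 4 for 2 members (7.69% of all genes). The remaining 3 members, Cdh2, Cdh11 and Nectin3, overlapped between the groups. The median log2 ratio of the 9 members was -0.08, against -0.000237 over all genes tested and members had ratios of both signs. In whole-ureter RNA, fewer cells of a type and less RNA per cell cannot be told apart.

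**Figure D1:**
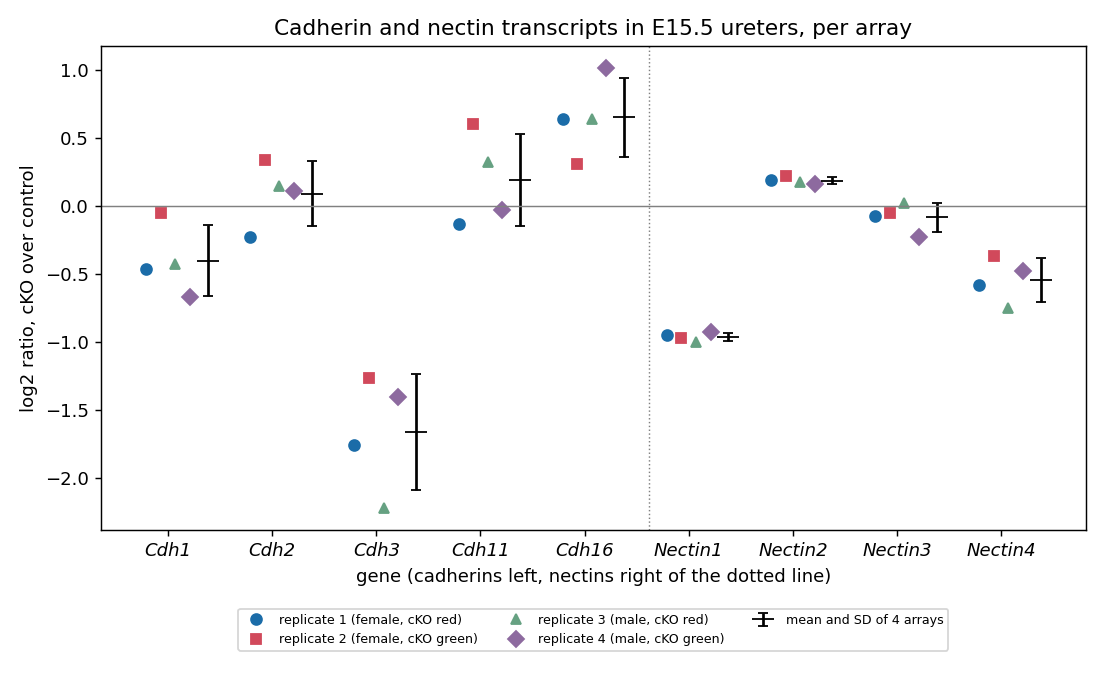
Log2 ratio of cKO over control for each member (y axis) on each of the 4 arrays (coloured symbols, by replicate, sex and dye), with the mean and SD of the 4 arrays (black). Cdh3 and Nectin1 are below 0 on every array, Nectin4 is less far below 0, Cdh16 and Nectin2 are above 0 on every array, and Cdh2, Cdh11 and Nectin3 have ratios on both sides of 0.

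Cdh3 encodes P-cadherin. Its only probe gave normalised log2 intensities of 12.76, 12.66, 13.05 and 12.77 in the control RNAs of replicates 1 to 4, and of 11.00, 11.39, 10.83 and 11.36 in the cKO RNAs. Every cKO RNA lay more than 1 log2 unit below every control RNA. The control RNA of replicate 3 was the highest of its group, and the cKO RNA on the same array the lowest of all 8. The log2 ratios were -1.76, -1.27, -2.22 and -1.41 in replicates 1 to 4, with a mean of -1.66 ± 0.42 (SD, n = 4). Cdh3 transcript was thus 3.16-fold lower (limma, adjusted p = 0.00187), the 14th lowest ratio among 21499 genes. The ratio was -1.99 as the mean of the arrays with cKO in red and -1.34 with cKO in green. The dye term, which is the deviation of the red mean from the overall ratio, was -0.33, the largest in size among the members. By sex, the Cdh3 ratio was -1.51 in the female and -1.81 in the male pairs. The test of the sexes' difference called 0 members (limma, unadjusted p from 0.188 to 0.984, 0 of them under 0.05). In this test, 0.0372% of all genes were called lower and 0.0326% higher in males than in females. The fit had 1 residual degree of freedom and infinite prior degrees of freedom. Its p-values thus used 1 spread shared by all genes and not each gene's own.

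Cdh1 encodes E-cadherin, the general cadherin of epithelia. Its normalised log2 intensity was 15.64, 15.23, 15.61 and 15.36 in the control RNAs and 15.18, 15.18, 15.18 and 14.69 in the cKO RNAs of replicates 1 to 4. The groups did not overlap, but only narrowly so, since the lowest control RNA, that of replicate 2, was at 15.23 and the highest cKO RNA at 15.18. The cKO RNA of replicate 4 was lower than the other cKO RNAs. The log2 ratios were -0.46, -0.05, -0.43 and -0.67, with a mean of -0.40 ± 0.26 (SD, n = 4), which did not pass the test (limma, adjusted p = 0.301). Without replicate 2, whose ratio was the closest to 0, Cdh1 passed at -0.56 (adjusted p = 0.00257). This was the 1 setting of 14 alternatives in which it passed. Without replicate 4 its ratio was -0.24 (adjusted p = 0.0845).

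Within each array, the Cdh3 ratio was below the Cdh1 ratio with differences of -1.30, -1.22, -1.79 and -0.74 log2 units in replicates 1 to 4 and a mean of -1.26 ± 0.43 (SD, n = 4). P-cadherin transcript thus differed between genotypes by more than E-cadherin transcript on all 4 arrays. In the exact two-sided sign-flip permutation test, 2 of 16 sign assignments were as extreme, which is the smallest p that 4 arrays allow and lies above 0.05. The same held for each of the 9 pairs of members compared, also after Benjamini-Hochberg adjustment over the pairs.

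Cdh2 encodes N-cadherin, found in neural and many mesenchymal cells. On chromosome 18 at 16747559 to 16747618, its brighter probe gave log2 ratios of -0.23, 0.34, 0.15 and 0.11, a mean of 0.09 ± 0.24 (SD, n = 4), and the other gave 0.13 ± 0.23. The female pairs lay on either side of 0, the levels overlapped between the groups (12.67 to 12.99 in control and 12.76 to 13.18 in cKO RNAs), and Cdh2 did not pass the test (limma, adjusted p = 1.00). Leaving out 1 replicate moved its ratio between -0.002 (without replicate 3) and 0.19 (without replicate 1), with no call. Relative to Cdh2, the Cdh3 ratio was lower by a mean difference of -1.75 ± 0.41, with the same sign on all 4 arrays.

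Cdh11 encodes cadherin 11, a cadherin of mesenchymal cells. Its brighter probe (chromosome 8, 105157473 to 105157532, minus strand) gave log2 ratios of -0.13, 0.61, 0.32 and -0.03, a mean of 0.19 ± 0.34 (SD, n = 4). Levels were 14.64 to 14.98 in control and 14.85 to 15.24 in cKO RNAs and overlapped, and the test was not passed (limma, adjusted p = 0.991). Leaving out 1 replicate moved the ratio between 0.03 (without replicate 2) and 0.35 (without replicate 4), with no call. The other Cdh11 probe gave 0.27 ± 0.43. On both Cdh11 probes replicate 2 was the highest. The difference of Cdh3 minus Cdh11 was -1.85 ± 0.50 and negative on all 4 arrays.

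Cdh16 encodes cadherin 16, also called Ksp-cadherin, a cadherin of kidney tubule and other urogenital epithelia whose short cytoplasmic tail sets it apart from the classical type. Its probe (chromosome 8, 107138101 to 107138160, minus strand) read 13.93, 14.21, 13.77 and 13.81 in the control RNAs and 14.57, 14.51, 14.41 and 14.83 in the cKO RNAs of replicates 1 to 4. All cKO RNAs were above all control RNAs. The log2 ratios were 0.64, 0.31, 0.64 and 1.02, with a mean of 0.65 ± 0.29 (SD over 4 arrays). That is 1.57-fold higher, with 102 genes at or above it, and it missed the threshold with all 4 arrays (limma, adjusted p = 0.0964). It passed in 7 of the 14 alternatives: without any 1 of the replicates (0.48 to 0.83, adjusted p from 0.000186 to 0.0135), without the dye term (adjusted p = 0.0288), with a sex term (adjusted p = 0.000131), and without the replicate block (adjusted p = 0.0384). Fits without 1 replicate, and that with a sex term, have 1 residual degree of freedom.

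Cdh16 ran opposite to Cdh3, with a difference of -2.31 ± 0.54 (Cdh3 minus Cdh16) that was negative on all 4 arrays. Among kidney tubule markers, 6 of 10 were above background and 1 of them, Cubn, was higher in cKO ureters at 1.98, 2.05, 2.61 and 2.23 in replicates 1 to 4 (mean 2.22 ± 0.28, limma, adjusted p = 0.00175). Before adjustment, 2 of these 6 had p under 0.05, both higher, the other being Lrp2 at 0.37 ± 0.32. The rest had negative means: Fxyd2 at -0.38, Slc34a1 at -0.14, Hnf4a at -0.12 and Aqp2 at -0.05. The median over the 6 was -0.09. The markers Calb1, Slc12a1, Slc12a3 and Umod were not above background in either group. The median log2 ratio of this marker list was 0.18, -0.35, -0.03 and 0.36 in replicates 1 to 4. The mean level over its tested genes was 9.54 to 9.71 in cKO and 9.11 to 9.90 in control RNAs. Cdh16 and Cubn were above 0 on all 4 arrays, whereas the list's median was below 0 on 2 of them. The part of kidney tissue in the Cdh16 ratio was not tested.

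**Figure D2:**
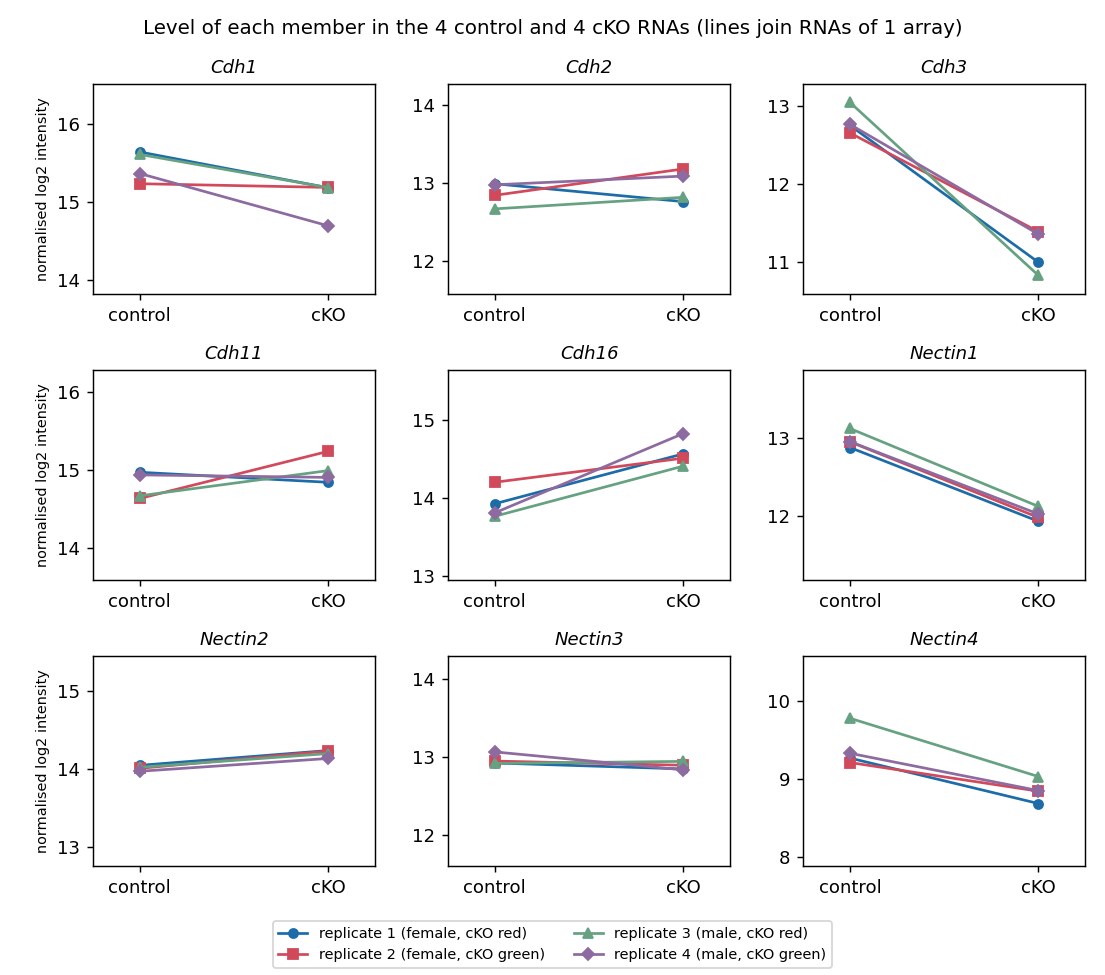
Normalised log2 intensity (y axis) of each member in the 4 control and 4 cKO RNAs, with lines that join the RNAs of 1 array. The lines of Cdh3 fall most steeply, those of Nectin1 fall in parallel, and those of Cdh16 rise. Levels are not comparable between genes, since each comes from another probe.

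Nectin1 encodes nectin 1, which binds nectins 3 and 4 on neighbouring cells. Normalised log2 intensities were 12.88, 12.96, 13.13 and 12.96 in the control RNAs of replicates 1 to 4 and 11.94, 11.99, 12.13 and 12.03 in the cKO RNAs. The groups were far apart, and replicate 3 was the highest in both. The log2 ratios of -0.95, -0.97, -0.999 and -0.93 lay close together, with a mean of -0.96 ± 0.03 (SD, n = 4). Nectin1 transcript was 1.95-fold lower in cKO ureters (limma, adjusted p = 0.00406), the 60th lowest ratio of all genes tested. The female and the male pairs both had a mean of -0.96.

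Nectin4 encodes nectin 4, a partner of nectin 1 in trans in epithelia. Its brighter probe read 9.27, 9.21, 9.78 and 9.33 in the control RNAs and 8.69, 8.84, 9.03 and 8.85 in the cKO RNAs. The groups did not overlap, and replicate 3 was again the highest in both. The log2 ratios were -0.58, -0.37, -0.75 and -0.48, with a mean of -0.54 ± 0.16 (SD over 4 arrays). Nectin4 transcript was 1.46-fold lower (limma, adjusted p = 0.0366). The other Nectin4 probe, A_55_P2161475 (chromosome 1, 173318624 to 173318683), gave -0.10, -0.25, -0.33 and -0.06, a mean of -0.18 ± 0.13, and did not pass when each probe was tested by itself (limma, adjusted p = 0.749), a test in which 0.58% of all kept probes were lower. Both Nectin4 probes were below 0 on all 4 arrays, but differed in size. They also differed in brightness. The mean level of A_55_P2161475 was 6.88 in cKO and 7.06 in control RNAs, against 8.85 and 9.40 at the brighter probe. The part of dim signal in the smaller ratio was not tested. The decrease passed in 8 of the 14 alternatives and missed in the others, among them without replicate 3 (-0.50, adjusted p = 0.181), with the mean of both probes (-0.36, adjusted p = 0.121), and without the replicate block (-0.54, adjusted p = 0.0989).

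Nectin2 encodes nectin 2, which is found in many cell types. Its brighter probe (chromosome 7, 20302018 to 20302077, minus strand) gave 0.19, 0.22, 0.18 and 0.16, a mean of 0.19 ± 0.03 (SD, n = 4). The levels did not overlap (13.96 to 14.04 in control and 14.13 to 14.23 in cKO RNAs), yet so small a difference did not pass the test (limma, adjusted p = 0.537). The other Nectin2 probe, A_52_P188678 (chromosome 7, 20309866 to 20309924), is designed on another transcript and gave 0.04, -0.09, -0.19 and 0.25, with both signs among its arrays.

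Nectin3 encodes nectin 3, the preferred partner of nectin 1. Its brightest probe (chromosome 16, 46454777 to 46454836, minus strand) gave -0.08, -0.05, 0.03 and -0.23, a mean of -0.08 ± 0.11 (SD, n = 4), with overlapping levels (limma, adjusted p = 1.00). The further Nectin3 probes gave 0.22 ± 0.20 and 0.16 ± 0.21. With the mean of its kept probes the Nectin3 ratio turned to 0.10, again without passing the test, so no direction can be given for this gene.

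**Figure D3:**
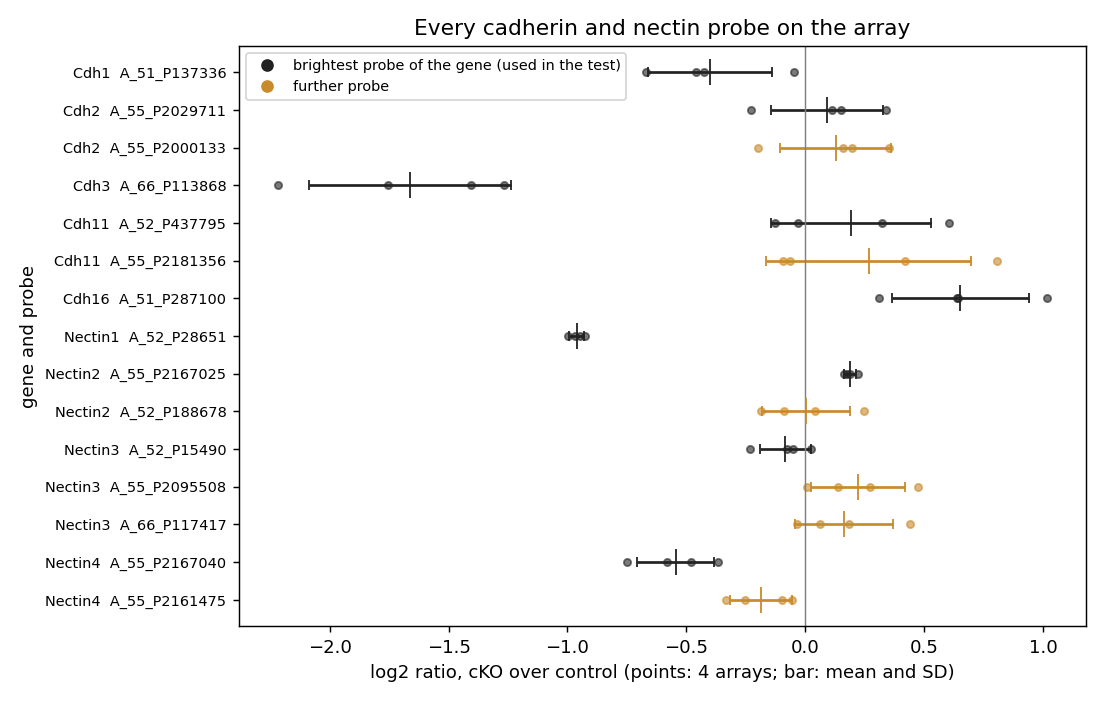
Log2 ratio of cKO over control on each array (points, x axis), with the mean (vertical tick) and SD (horizontal bar) of the 4 arrays, for all 15 probes of the 9 members. Probes of 1 gene are adjacent; the Cdh2 and Cdh11 probes lie close together, whereas those of Nectin4 differ in size and those of Nectin3 in sign.

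Set against its paralogs within each array, Nectin1 was lower than Nectin2 by -1.15 ± 0.04, than Nectin3 by -0.88 ± 0.14 and than Nectin4 by -0.42 ± 0.15 (mean difference of log2 ratios ± SD, n = 4). All 3 differences were negative on all 4 arrays. The difference to Nectin4 was the smallest in size, from -0.25 in replicate 3 to -0.60 in replicate 2. Nectin1 was also lower than Cdh1, by -0.56 ± 0.28. Between the members with the lowest ratios, Cdh3 was lower than Nectin1 by -0.70 ± 0.41, with -0.30 in replicate 2 and -1.22 in replicate 3. Each of these again had the smallest exact p that the design allows.

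Markers of the cell types in the ureter were read beside these results. Of 10 basal epithelial markers, 7 were lower and 0 higher, against 0.702% and 0.502% of all genes. This list, like the others, was chosen with earlier results of these data known. Its median log2 ratio was -0.91, with mean levels of 9.60 to 9.74 in cKO against 10.45 to 10.81 in control RNAs. The markers that were not called were Itga6 at -0.14 ± 0.29, Col17a1 at -0.11 ± 0.17 and Lamb3 at -0.00017 ± 0.14 (SD, n = 4), each with both signs among the arrays. Of 15 general epithelial markers, 0 were lower and 1, Krt18, was higher. Before adjustment, 5 of them were lower and 2 higher at p under 0.05, where 4.31% of all genes were lower and 3.73% higher. Their median ratio was -0.10 (-0.10, -0.15, -0.16 and 0.10 in replicates 1 to 4), with mean levels of 14.09 to 14.17 in cKO and 14.16 to 14.36 in control RNAs. With this median taken off each array, the mean ratio was -1.58 ± 0.39 for Cdh3, -0.88 ± 0.10 for Nectin1, -0.47 ± 0.17 for Nectin4, -0.32 ± 0.36 for Cdh1 and 0.73 ± 0.20 for Cdh16. The Cdh3 and Nectin1 ratios were thus far below the median of general epithelial markers on every array, whereas Cdh1 was above it in replicate 2. The part of basal cell number in these ratios was not tested.

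All 10 mesenchymal, 7 smooth muscle, 10 neuronal and glial and 6 endothelial markers were above background. None of these 4 lists had a member that passed in either direction, with 1 mesenchymal marker higher and 1 neuronal or glial marker lower at an unadjusted p under 0.05. Their median ratios were -0.04, 0.04, -0.12 and 0.13 in that order. The mesenchymal median was -0.09, 0.07, 0.18 and -0.30 in replicates 1 to 4. At their brighter probes, Cdh2 and Cdh11 were likewise highest in replicates 2 and 3. The other Cdh2 probe was highest in replicates 2 and 4 (0.35 and 0.20, against 0.16 in replicate 3). Ctnnb1, which is outside this list, was also highest in replicates 2 and 3 (0.49 and 0.19). The part of mesenchymal cells in these ratios was not tested. Of 8 skeletal muscle markers, 2 (Myl1 and Ckm) were lower and 0 higher, against 0.702% and 0.502% of all genes. Before adjustment, 5 were lower and 0 higher at p under 0.05 (limma), against 4.31% and 3.73% of all genes. The median of this list was -0.41, with -0.26, -0.44, -0.68 and -0.36 in replicates 1 to 4. The cause of this shift was not tested.

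Transcripts of the proteins that tie cadherins and nectins to actin were not called in either direction. Of 28 adherens junction partners, 27 were tested (Ctnna3 was not above background), with 0 calls in either direction (limma) and a median of 0.01. Before adjustment, 1 of them had p under 0.05, in the lower direction. Ctnnb1, which encodes β-catenin, gave 0.07 ± 0.34, Ctnna1, which encodes α-catenin, 0.24 ± 0.38, and Ctnnd1, which encodes p120-catenin, 0.12 ± 0.19 (SD, n = 4). Afdn, which encodes the nectin-binding afadin, gave 0.23 ± 0.28. The smallest p was that of Ctnnd2, the gene of the neuronal relative δ-catenin, with -0.50, -0.18, -0.72 and -0.83 and a mean of -0.56 ± 0.29 (limma, adjusted p = 0.141). It was below 0 on all 4 arrays and passed in 4 of the 14 alternatives: -0.61 without replicate 1 (adjusted p = 0.0236), -0.72 without replicate 2 (adjusted p = 0.000826), -0.40 without replicate 4 (adjusted p = 0.0195) and with a sex term (adjusted p = 0.00249). All of these fits have 1 residual degree of freedom, and no fit with more called Ctnnd2. Ctnnal1 at -0.33 ± 0.36 and Actn4, an actin crosslinker, at 0.18 ± 0.19 did not pass.

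Among 9 nectin-like genes and nectin receptors, 7 were tested (Cadm2 and Tigit were not above background), with 1 lower, 0 higher and a median of -0.0044. The gene that fell was Cadm1, which encodes an immunoglobulin-like adhesion protein related to nectins, with -0.55, -0.41, -0.59 and -0.37 and a mean of -0.48 ± 0.10 (SD, n = 4; limma, adjusted p = 0.0423). It passed in 7 of the 14 alternatives. The call was lost when replicate 1 was left out (adjusted p = 0.168) or replicate 3 (adjusted p = 0.284). Pvr, which encodes the nectin-like poliovirus receptor, gave 0.05 ± 0.12.

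Of 23 other cadherins, 19 were tested, with 0 calls in either direction (limma) and a median of -0.02. Before adjustment, 5 of them had p under 0.05, of which 2 were lower and 3 higher, against 4.31% and 3.73% of all genes. Cdh17, a liver and intestine cadherin with a short tail like that of Cdh16, gave 0.79, 1.05, 1.00 and 0.29, a mean of 0.78 ± 0.34 (SD, n = 4; limma, adjusted p = 0.0680). It was above 0 on all 4 arrays and passed in 10 of the 14 alternatives, and its ratio was 1.56 with the processed signals of the scanner software (adjusted p = 0.0493) and 1.18 in the fit of the authors' deposited table (adjusted p = 0.303). Cdh4, which encodes R-cadherin, gave -0.47 ± 0.11 (limma, adjusted p = 0.0718) and passed in 5 of the 14, with an adjusted p of 0.00937 without replicate 2, 0.0135 without replicate 4, 0.0188 without the dye term, 0.0257 with a sex term and 0.0409 without the replicate block. Cdh20 at -0.33 ± 0.18 and Cdh22 at 0.31 ± 0.25 did not pass.

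All 17 listed regulators of cadherin genes were tested, with 1 lower, 0 higher and a median of 0.02. Grhl3, a grainyhead-like transcription factor of surface epithelia, fell by 0.68 on the log2 scale (-0.67, -0.40, -0.74 and -0.92 in replicates 1 to 4, SD 0.22, limma, adjusted p = 0.0467). It passed in 12 of the 14 alternatives and missed without the filter on dim probes (adjusted p = 0.171) and with the deposited value table (adjusted p = 0.365). Grhl1 gave -0.37 ± 0.35 and Grhl2 -0.15 ± 0.32. The repressors of E-cadherin gave 0.15 ± 0.37 for Snai1, 0.25 ± 0.26 for Snai2, 0.02 ± 0.21 for Zeb1 and 0.16 ± 0.24 for Zeb2, none of which passed the test.

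**Figure D4:**
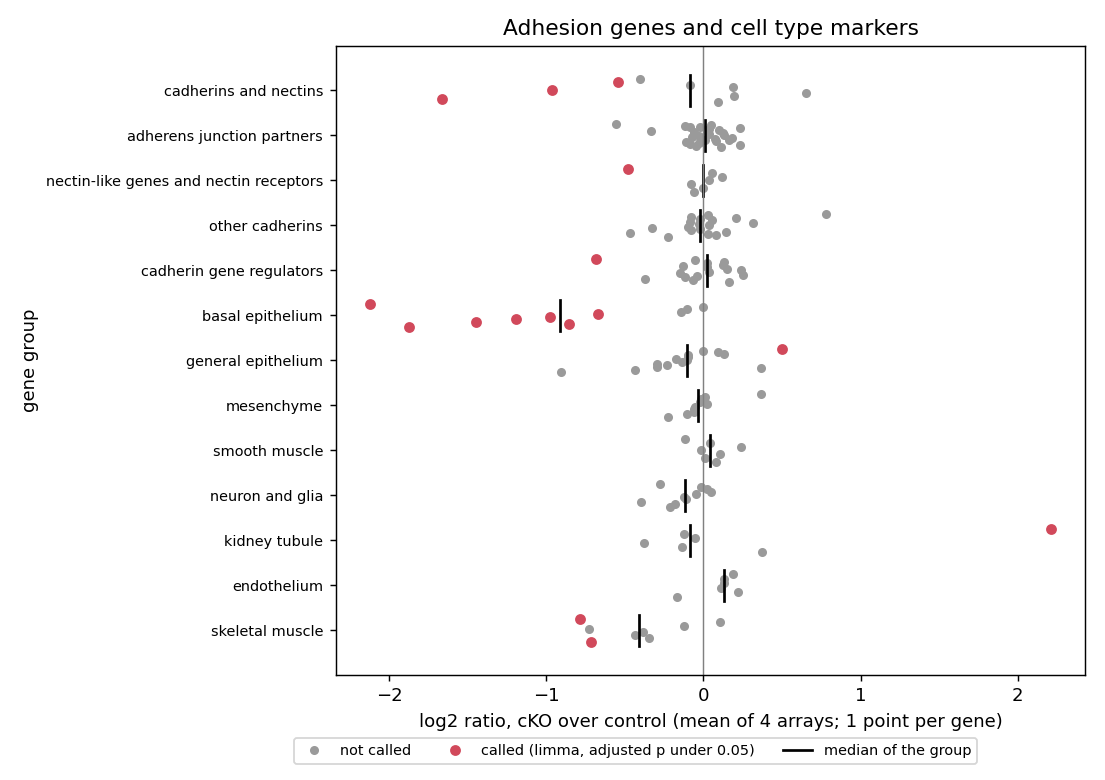
Mean log2 ratio of cKO over control (x axis) for each tested gene (points, 4 arrays) of the cadherins and nectins, the related adhesion lists and the cell type marker lists (y axis), with called genes in red and the median of each list as a bar. The 4 related adhesion lists are centred near 0 with at most 1 call each, and the basal epithelial list is centred at -0.91.

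Among the genes most like Cdh3 over the 4 arrays, by Euclidean distance of the log2 ratios among 15942 genes, were Wnt6, a Wnt ligand, at a distance of 0.486, Duoxa1, a maturation factor of the dual oxidases, at 0.495, and Lypd3, a GPI-anchored protein of stratified epithelia, at 0.572. Their mean ratios were -1.64 ± 0.17, -1.59 ± 0.20 and -1.86 ± 0.19 (SD, n = 4). All 3 had their lowest ratio in replicate 3, as Cdh3 did. For Nectin1 they were Cbr2, a carbonyl reductase, at a distance of 0.0907, Rhbg, an ammonium transporter, at 0.194, Entpd3, an ectonucleotidase, at 0.219, and Atp2c2, a calcium pump of the secretory pathway, at 0.242. Their mean ratios were -0.93 ± 0.05, -0.94 ± 0.14, -1.002 ± 0.14 and -0.91 ± 0.15. For Cdh1 they were Mctp2, Mup19, Itprid1 and Ddx58, at distances of 0.116 to 0.132, with mean ratios from -0.42 to -0.35. The genes named here for Cdh3 and Nectin1 passed the test, and those named for Cdh1 did not. They were picked by the same 4 ratios that the test uses. This outcome, like the shared low in replicate 3, thus follows largely from the choice. The distance uses the size of the ratio and not its shape alone.

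Trp63 itself, the targeted gene, gave -1.39, -1.18, -1.30 and -1.62 at its brightest probe, a mean of -1.37 ± 0.18 (SD, n = 4; limma, adjusted p = 0.00323). With the mean of its kept probes the Trp63 ratio was -0.87 (adjusted p = 0.0177). Of its other probes, A_55_P1952056 gave -1.26 ± 0.36, A_52_P338796 gave -0.81 ± 0.34, and A_55_P2161055 gave -0.02 ± 0.16 with both signs among the arrays. It is unknown here if the floxed part holds that probe. The green channel had median signals of 382 to 416 and the red channel of 519 to 617, with 71.8% to 77.0% of spots of gene probes well above background and 0 saturated spots. All 4 arrays were on 1 slide with 1 scan day. Ratios of array pairs correlated across genes with r from -0.06 to 0.62, and genes are not independent replicates. The decreases of Cdh3 and Nectin1 passed in 13 of the 14 alternatives, and missed with the authors' deposited value table, where the ratios fitted with limma were -1.72 (adjusted p = 0.193) and -0.97 (adjusted p = 0.143).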

How the data were processed

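The deposited scanner output gives the intensity of each spot in both channels, from Agilent Feature Extraction 10.7.3.1 per the submitters' processing notes. The authors' deposited value table holds log2 ratios with the dye orientation already turned, with a median of 0 per array and 32.2% to 32.6% of values exactly 0, for a reason not given in the sources used here. Each labelling used 200 ng of total RNA, per the labels' protocols.

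Background correction used normexp (offset 50) on all spots, and within-array loess, with control spots at weight 0, gave the ratios. Nonuniform spots were left out and replicate spots averaged. Probes were kept where at least 0.5 of its spots were well above background on all 4 arrays in control or in cKO RNA. A gene was read at its brightest kept probe. The fit used limma 3.58.1 (R 4.3.3) with a dye intercept, the array being the pair, and p-values were adjusted over 21499 genes (Benjamini-Hochberg, threshold 0.05). All adjusted p-values of genes come from limma. Levels are channel values after loess and Aquantile normalisation. On simulated ratios of 21498 genes for this comparison, the fit recovered 44.9% of genes changed 1.5-fold, 84.3% of those changed 2-fold and 97.1% of those changed 4-fold. The simulated noise had the SD of each gene but was normal and independent between genes and arrays. These shares need not hold for the real arrays, where noise can be shared between genes.

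Genes named are all members, Trp63, list members that passed or had the smallest p (up to 4 per list), and the 4 genes nearest to Cdh3, Nectin1 and Cdh1. Some further catenins, afadin, Pvr, Grhl and repressor genes were named for their role. Members and lists were chosen with earlier results of these data known. Alternatives were other background correction, centring, filters, probe summaries, fits, the deposited table, and each replicate left out. The replicate numbers pair the samples because the RNAs of 1 number share an array. Results of some other genes are not reported here.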

Additional observations from a re-analysis of the deposited data

Results flagged for a closer look

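Of 56 sets of 4 values examined, 2 had 1 value far from the rest, where the gap to the nearest value over the whole range exceeded Dixon's 95% critical value. Chance gives about 1 such set in 20. The Cdh1 level in the 4 cKO RNAs had a gap of 0.991 of the range, with replicate 4 at 14.69 and the others at 15.18. The Duoxa1 log2 ratio had a gap of 0.911 of the range, with replicate 3 at -1.89 and the others from -1.52 to -1.48.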

How the results depend on the processing

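Over 14 alternatives, the ratios of Cdh3, Nectin1, Nectin4, Cdh1 and Cdh16 kept their sign, with -1.78 to -1.55 for Cdh3 and -0.97 to -0.90 for Nectin1. The 9 differences between members kept their sign in the 8 alternatives in which they were computed (processed signals, median centring, mean of kept probes, the deposited values and each replicate left out). In the fit of the authors' deposited log2 values, 0 members were called lower (before adjustment, 3 lower and 2 higher at p under 0.05), Cdh3 was at -1.72 and Nectin1 at -0.97, and 0 genes were lower and 1 higher of all tested (before adjustment, 957 and 825). Without 1 replicate, 2 to 4 members were lower and 1 was higher, and over all genes 155 to 855 were lower and 128 to 753 higher. In each of these fits, without the dye term, with a sex term and without the replicate block, the 1 member called higher was Cdh16. All-gene counts were 266 lower and 194 higher without the dye term, 310 lower and 233 higher with a sex term, 55 lower and 31 higher without the filter on dim probes, and 217 lower and 169 higher without the replicate block. The replicate block changed the calls of Nectin4 and Cdh16 and of no other member. Fits without 1 replicate have 1 residual degree of freedom. Limma's prior degrees of freedom ranged there from 8.45 to infinite, against 4.07 in the main fit. With all 4 arrays they were infinite with a sex term, 2.12 without the filter on dim probes and 0.83 with the deposited values. The cause of these shifts was not tested. Signal above background was present for every member, and the number of arrays limits the precision.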
